A study of Mus musculus with 18 samples.

Results

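The heat shock chaperones described here are 10 genes: Hspa1a, Hspa1b, Hspa8, Hsph1, Dnajb1, Hsp90aa1, Hsp90ab1, Hspb1, Hspd1 and Hspe1. They were taken as a named list and matched by symbol to the 28030 genes of the deposited count table. All 10 were found under 1 Ensembl identifier each, and all 10 were among the 12477 genes with enough counts to be tested. RNA sequencing was done on hepatocytes from livers of wild-type male C57BL/6J mice aged 12 weeks on normal chow. Hepatocytes of either end of the liver lobule, pericentral (around the central vein) or periportal (around the portal vein), were isolated with digitonin, a detergent that permeabilises cells. Each zone was sampled in 3 feeding states, which gave 6 groups of 3 libraries. Before the experiment all mice had 3 days of training with 16 h without food overnight and 8 h of daytime feeding. On the day itself all had food with 20% sucrose in the drinking water. Fed mice were killed after 4 h of feeding, at clock hour 13. Food and sucrose were then withdrawn from the fasted groups for 8 h, ending at clock hour 21, or for 24 h, ending at clock hour 13 again. At 8 h, fasting and clock hour therefore cannot be told apart, whereas fed and 24 h mice were killed at the same hour. The labels do not say whether the replicates, or the zones of 1 replicate number, came from separate mice, so p-values measure only the spread between these samples.

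Chaperones of the HSP70 family hold unfolded protein segments and release them in a cycle driven by ATP. HSP40 proteins such as Dnajb1 deliver the substrate, and HSP110 proteins such as Hsph1 exchange the nucleotide. HSP90 takes partly folded clients, among them steroid receptors and kinases, from HSP70, small heat shock proteins such as Hspb1 keep unfolding proteins soluble, and the HSP60 and HSP10 chaperonin folds proteins inside the mitochondrial matrix. The transcription factor HSF1 drives most of these genes in heat and other proteotoxic stress by binding heat shock elements, which are made of alternating GAA and TTC units. In the liver, several of these mRNAs are also known to follow the daily rhythm of body temperature.

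Start regions are shown first because they hold the sequence by which HSF1 recognises its targets. RefSeq promoter windows (GRCm38, 250 bases before to 50 bases after a start) were supplied for 7 of the 10 members; Hspa8, Hsp90aa1 and Hsp90ab1 were not among them. The letters GAANNTTC or TTCNNGAA, where N is any base, were searched. Each is its own reverse complement, so a match stands for both strands, and the 2 can overlap. They were found in 6 of the 7 members (85.7%) and in 15.1% of all 32851 windows. The longer forms, in which GAANNTTC is followed by NNGAA or TTCNNGAA by NNTTC so that 3 units alternate, are the reverse complement of each other and were found in Hspd1, Hspe1 and Hsph1 (42.9% of the 7) and in 0.603% of all windows. Dnajb1 held neither motif. Members were counted by gene, with a match in any of their 10 windows, and the background by single window, so these percentages are unlike measures. The matches of Hspd1 and Hspe1 are also the same bases, and the windows of Hspa1a and Hspa1b are nearly identical upstream. Such a match is a description of the letters and not evidence of binding.

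Hspa1a and Hspa1b, the stress-inducible HSP70 pair, lie 9951 bases apart on chromosome 17, minus strand. Their 150 bases before the start (chr17:34972157-34972306 and chr17:34959239-34959388, outside annotated exons) are shown because they are identical at 149 bases. The single difference lies at position -2, and capitals mark GAANNTTC at -104 to -97. Hspb1 (chr5:135887769-135887918, plus strand, outside annotated exons) had 2 such matches, from -117 and from -97.
Hspa1a: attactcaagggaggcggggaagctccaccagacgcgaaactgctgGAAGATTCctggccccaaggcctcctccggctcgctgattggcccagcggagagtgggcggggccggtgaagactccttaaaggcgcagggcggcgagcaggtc
Hspa1b: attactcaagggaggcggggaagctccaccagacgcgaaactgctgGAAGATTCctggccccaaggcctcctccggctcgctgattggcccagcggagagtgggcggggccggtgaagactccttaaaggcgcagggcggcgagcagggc
Hspb1: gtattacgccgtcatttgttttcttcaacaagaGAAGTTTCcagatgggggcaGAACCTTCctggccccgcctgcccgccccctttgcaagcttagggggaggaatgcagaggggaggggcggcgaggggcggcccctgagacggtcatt

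Hspd1 and Hspe1, which encode the 2 partners of the mitochondrial chaperonin, lie head to head on chromosome 1 and overlap by 112 bases on opposite strands. They share 1 run of alternating units. The 30 bases around it (chr1:55088053-55088082) are shown as read toward each gene, because the same letters stand before a start of both. They lie at -95 to -66 of Hspe1 and at -150 to -121 of a start of Hspd1, inside an annotated exon of Hspd1. The 30 bases of Hsph1 (chr5:149636287-149636316, minus strand) lie at 21 to 50 after a start of Hsph1 (position 149636336), inside its own exon. Hsph1 also had TTCNNGAA before that start, at -33 to -26, which is not shown. Capitals again mark the matches.
Hspe1: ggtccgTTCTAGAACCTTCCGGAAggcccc
Hspd1: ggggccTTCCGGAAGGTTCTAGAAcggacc
Hsph1: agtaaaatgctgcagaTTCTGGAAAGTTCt

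Libraries held 18359911 to 26384358 estimated counts, with 6.93% to 9.8% in mitochondrial genes. The summed level of 6 pericentral markers was 9440 to 18600 CPM (counts scaled to equal library size) in pericentral and 422 to 2050 CPM in periportal libraries. The sum of 6 periportal markers was 354 to 6640 CPM against 4210 to 11200 CPM, with the high pericentral values in fasted mice. Markers of other cell types were low in sum: endothelial 2.81 to 31.7 CPM, Kupffer cell and leukocyte 0.325 to 10.2 CPM, stellate 0.921 to 16.7 CPM, cholangiocyte 19.3 to 56.6 CPM with Epcam at 0 in every library, and erythroid 30.8 to 75.1 CPM. Their part in the results was not tested.

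Some libraries stood apart in the members' values. Periportal 24 h replicate 3 was the highest of its group in 9 of the 10 members, all but Hsph1. Pericentral 24 h replicate 2 was the lowest of its group in 7 members, periportal 8 h replicate 3 the lowest in 8, and pericentral fed replicate 3 the highest in 8. Replicate 2 of each 8 h group was the highest in 7 and the lowest in 0. Periportal 24 h replicate 3 also had the highest sums of endothelial (16.3 CPM), Kupffer cell and leukocyte (10.2 CPM), cholangiocyte (52.5 CPM) and erythroid markers (70.7 CPM) of its group, though not of stellate cell markers (6.58 CPM), and the highest of immediate early genes (430 CPM). Pericentral 24 h replicate 2 had the lowest sum of immediate early genes of all 18 libraries (101 CPM) and the lowest pericentral marker sum of its group (10800 CPM). Periportal 8 h replicate 3 had the highest endothelial (31.7 CPM) and stellate cell sums (16.7 CPM) of all 18 libraries. Its Kupffer cell and leukocyte sum (5.96 CPM) was the highest and its immediate early sum (307 CPM) the lowest of its group. The part of these in the chaperone values was not tested.

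Hspa8, Hsp90aa1 and Hsp90ab1 mRNA fell at 8 h in both zones, by 1.53-fold to 3.51-fold. Dnajb1 and Hsph1 passed the edgeR test for a fall in pericentral hepatocytes alone, and Hspe1 in periportal ones alone. Their estimates were below 0 in the other zone as well, and 0 members passed the test of a zone difference in this change. In pericentral hepatocytes 5 of the 10 members were lower at 8 h than in fed mice and 0 were higher (edgeR quasi-likelihood test, Benjamini-Hochberg adjusted p under 0.05 over all genes tested, written as q and referred to as called). Of all genes tested, 6.57% were called lower and 7.27% higher in that comparison. The members' median log2 fold change was -0.99, against 0.01 for all genes tested (-0.02 to 0.01 over the 13 comparisons). In periportal hepatocytes 4 were called lower and 0 higher, against 6.85% and 7.56% of all genes tested. The median was -0.62 and all 10 estimates were below 0. In bulk RNA, fewer cells of a type and less RNA per cell cannot be told apart.

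**Figure D1:**
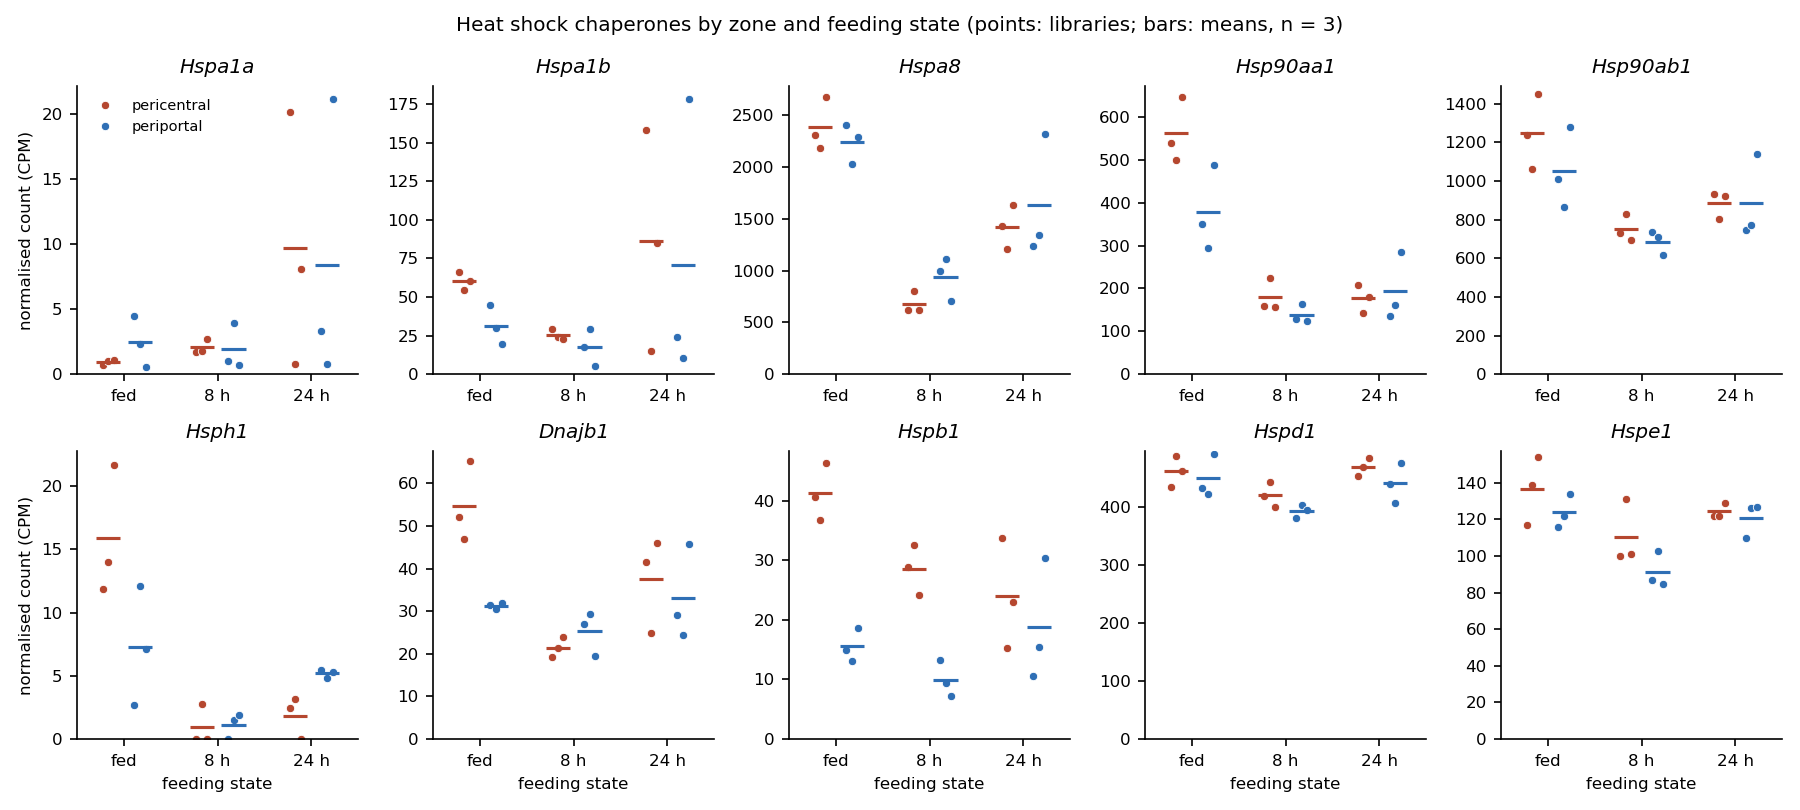
Normalised counts (CPM, linear axes from 0) of the 10 chaperones in fed mice and after 8 h and 24 h without food; points are libraries, bars are means of 3, red is pericentral and blue is periportal. Hspa8 fell from 2180 to 2680 CPM in fed to 617 to 803 CPM in 8 h pericentral libraries, while Hspd1 stayed between 381 and 491 CPM in all 18.

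Hspa8 (ENSMUSG00000015656, chromosome 9, 40800984 to 40810087, plus strand, GRCm38) encodes the constitutive HSP70 of the cytosol, which also uncoats clathrin vesicles and serves chaperone-mediated autophagy. Pericentral libraries held 2310, 2180 and 2680 CPM in the fed state, 621, 803 and 617 CPM after 8 h and 1430, 1210 and 1630 CPM at 24 h. Periportal libraries held 2410, 2030 and 2290 CPM in the fed state, 1000, 1110 and 704 CPM after 8 h and 1240, 1340 and 2320 CPM at 24 h. In both zones every 8 h library lay below every fed and every 24 h library, and only periportal 24 h replicate 3 reached the fed range.

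The fall of Hspa8 at 8 h was 3.51-fold in pericentral hepatocytes (log2 fold change -1.81, SE 0.22, edgeR q = 5.48e-05) and 2.4-fold in periportal ones (-1.26, SE 0.22, q = 0.00114). The call held in every alternative (other scalings, filters and tests, and each library left out), with adjusted p of at most 0.000605 and 0.00788. From 8 h to 24 h Hspa8 rose by 1.06 on the log2 scale in pericentral hepatocytes (SE 0.22, edgeR q = 0.0068, at most 0.04 over the alternatives). The periportal rise of 0.80 (SE 0.22, q = 0.0353) ranged from 0.0037 to 0.183 in adjusted p. It was lost without periportal 24 h replicate 3 (0.46) or 8 h replicates 1, 2 and 3 (0.84, 0.94 and 0.63), when only these groups were fitted and with the replicate number as a block.

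At 24 h Hspa8 was still below fed in pericentral hepatocytes (log2 fold change -0.75, 1.68-fold, SE 0.22, edgeR q = 0.0215, range 0.00402 to 0.0852). That call was lost without fed replicate 3 (-0.66), 24 h replicate 1 (-0.76) or 24 h replicate 2 (-0.65). In periportal hepatocytes the difference was -0.46 (q = 0.156, range 0.0124 to 0.429) and was called only without 24 h replicate 3 (-0.80). By group mean the order of Hspa8 was fed pericentral, fed periportal, 24 h periportal, 24 h pericentral, 8 h periportal and 8 h pericentral. Of these neighbours, only 24 h pericentral and 8 h periportal did not overlap.

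Both cytosolic HSP90 genes fell at 8 h, and Hsp90aa1 was also called lower than fed at 24 h in both zones. Hsp90aa1 (ENSMUSG00000021270, chromosome 12, 110690605 to 110702728, minus strand) encodes the more inducible HSP90 of the cytosol. Its pericentral levels were 540, 499 and 646 CPM in the fed state, 159, 224 and 156 CPM after 8 h and 208, 142 and 181 CPM at 24 h. Its periportal levels were 351, 294 and 487 CPM, then 128, 164 and 125 CPM, then 136, 162 and 285 CPM. All 12 fasted libraries lay below all 6 fed ones, while the ranges at 8 h and 24 h overlapped.

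The log2 fold changes of Hsp90aa1 against fed were -1.64 at 8 h (SE 0.26, edgeR q = 0.000541) and -1.67 at 24 h (SE 0.26, q = 0.000367) in pericentral hepatocytes, or 3.13-fold and 3.17-fold lower. In periportal hepatocytes they were -1.44 at 8 h (SE 0.26, q = 0.00177) and -0.96 at 24 h (SE 0.26, q = 0.0162, range 0.00169 to 0.1). The first 3 of these calls held in every alternative. On the periportal side the 24 h call did not survive omission of fed replicate 3 (-0.74), 24 h replicate 1 (-0.76) or 24 h replicate 2 (-0.84), nor a fit of only these groups. Between 8 h and 24 h the differences were -0.02 (95% interval -0.52 to 0.48, edgeR q = 0.973) in pericentral and 0.48 (95% interval -0.02 to 0.98, q = 0.288) in periportal hepatocytes. In the order of group means, fed pericentral and fed periportal stood apart from each other and from the 4 fasted groups, which overlapped with their neighbours.

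Hsp90ab1 (ENSMUSG00000023944, chromosome 17, 45567775 to 45573271, minus strand), the constitutive HSP90 gene, fell at 8 h in both zones. Fed, 8 h and 24 h pericentral libraries held 1240, 1060 and 1450 CPM, 732, 827 and 695 CPM, and 933, 803 and 922 CPM. The periportal series was 1010, 867 and 1280 CPM, then 734, 712 and 615 CPM, then 745, 774 and 1140 CPM. Each 8 h library lay below all fed libraries. The 24 h libraries overlapped the 8 h range on the pericentral side and the fed range on the periportal side.

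Hsp90ab1 fell by 0.73 on the log2 scale at 8 h in pericentral hepatocytes (SE 0.17, edgeR q = 0.00913), a call kept in every alternative. It fell by 0.61 in periportal ones (SE 0.17, q = 0.0253, range 0.00463 to 0.127), which was lost without fed replicates 1 (-0.64) and 3 (-0.45) or 8 h replicates 2 (-0.64) and 3 (-0.54) and when only these groups were fitted. At 24 h the difference from fed was -0.50 in pericentral hepatocytes, at the edge of the threshold (q = 0.0509, range 0.0224 to 0.193). It was called in 6 of 9 settings that kept all libraries, and without pericentral fed replicate 2 (-0.61), periportal fed replicates 2 and 3, 8 h replicate 1 or 24 h replicates 1 and 3 (-0.50 each). In periportal hepatocytes it was -0.25 (q = 0.363). The 6 group means ran from fed pericentral (1250 CPM) to 8 h periportal (687 CPM), and every neighbouring pair overlapped.

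Dnajb1 (ENSMUSG00000005483, chromosome 8, 83608193 to 83612653, plus strand), the main HSP40 partner of cytosolic HSP70, fell at 8 h in pericentral hepatocytes. It held 52, 46.9 and 65.3 CPM in fed, 19.2, 21.3 and 23.9 CPM in 8 h, and 41.6, 24.8 and 45.9 CPM in 24 h pericentral libraries. Periportal libraries held 31.4, 30.5 and 31.9 CPM in the fed state, 27, 29.3 and 19.6 CPM after 8 h and 29, 24.4 and 45.7 CPM at 24 h. All 3 pericentral fed libraries exceeded all 15 others, and the fed and 8 h periportal libraries did not overlap although they lay close together.

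The change of Dnajb1 at 8 h was -1.35 in pericentral (SE 0.24, 2.55-fold, edgeR q = 0.00144, kept in every alternative) and -0.31 in periportal hepatocytes (SE 0.24, q = 0.454). The test of that zone difference gave 1.05 (SE 0.34, unadjusted p 0.00707) with an edgeR q of 0.909, so it did not pass. The q value ranged from 0.523 to 1 over the alternatives. In fed mice Dnajb1 was lower on the periportal side by 0.81 (log2 fold change -0.81, SE 0.24, q = 0.0482, range 0.00362 to 0.171). This call was lost without a low-count filter and when a single library was left out for 13 of the 18 (-0.91 to -0.66), the exceptions being replicate 3 of the periportal 8 h group and replicates 2 and 3 of each 24 h group. The pericentral rise from 8 h to 24 h was 0.80 (SE 0.24, q = 0.0464, range 0.0103 to 0.196). It was lost in 3 settings and for 13 of the 18 libraries left out singly (0.63 to 0.87), the exceptions being pericentral fed replicate 3, periportal 8 h replicate 3, pericentral 24 h replicate 2 and periportal 24 h replicates 2 and 3. The group means ran from fed pericentral (54.7 ± 9.53 CPM, SD, n = 3) through 24 h pericentral, 24 h periportal, fed periportal and 8 h periportal to 8 h pericentral (21.4 ± 2.35 CPM), and fed pericentral and fed periportal were the groups that did not overlap the next lower one.

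Hsph1 (ENSMUSG00000029657, chromosome 5, 149614287 to 149636376, minus strand), the HSP110 gene, gave estimates that depended on single libraries. It held 11.9, 14 and 21.7 CPM in fed, 0, 2.79 and 0 CPM in 8 h, and 2.42, 3.16 and 0 CPM in 24 h pericentral libraries. Periportal values were 2.72, 12.1 and 7.09 CPM, then 0, 1.47 and 1.91 CPM, then 5.48, 4.86 and 5.33 CPM. In 4 libraries the deposited estimate was between 0 and 0.054 counts, while the other libraries of those groups held 33 to 86 counts. Hsph1 shared 0 of its 31-base words with other annotated genes.

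Fed pericentral libraries lay above all fasted pericentral ones. The log2 fold change of Hsph1 at 8 h was -4.16 (SE 1.25, edgeR q = 0.041, range 0.0109 to 0.111). It was lost in 4 of 9 settings and on leaving out any of 12 libraries (-4.33 to -3.54), the exceptions being periportal fed replicate 1, pericentral 8 h replicate 2, periportal 8 h replicates 1 and 3 and pericentral 24 h replicates 2 and 3. Without pericentral 8 h replicate 2 it was -11.59. A listed value of 0 may be a failed estimate here, so the size of this change is uncertain. Of the 6 groups in order of their mean, only 24 h periportal (5.22 ± 0.321 CPM, SD, n = 3) did not overlap the next lower one, 24 h pericentral. None of the other 12 comparisons of Hsph1 was called by edgeR; the 24 h pericentral difference from fed (-3.05, q = 0.073, range 0.0261 to 0.225) was called by limma-voom and without pericentral 8 h replicate 2 (-3.05).

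**Figure D2:**
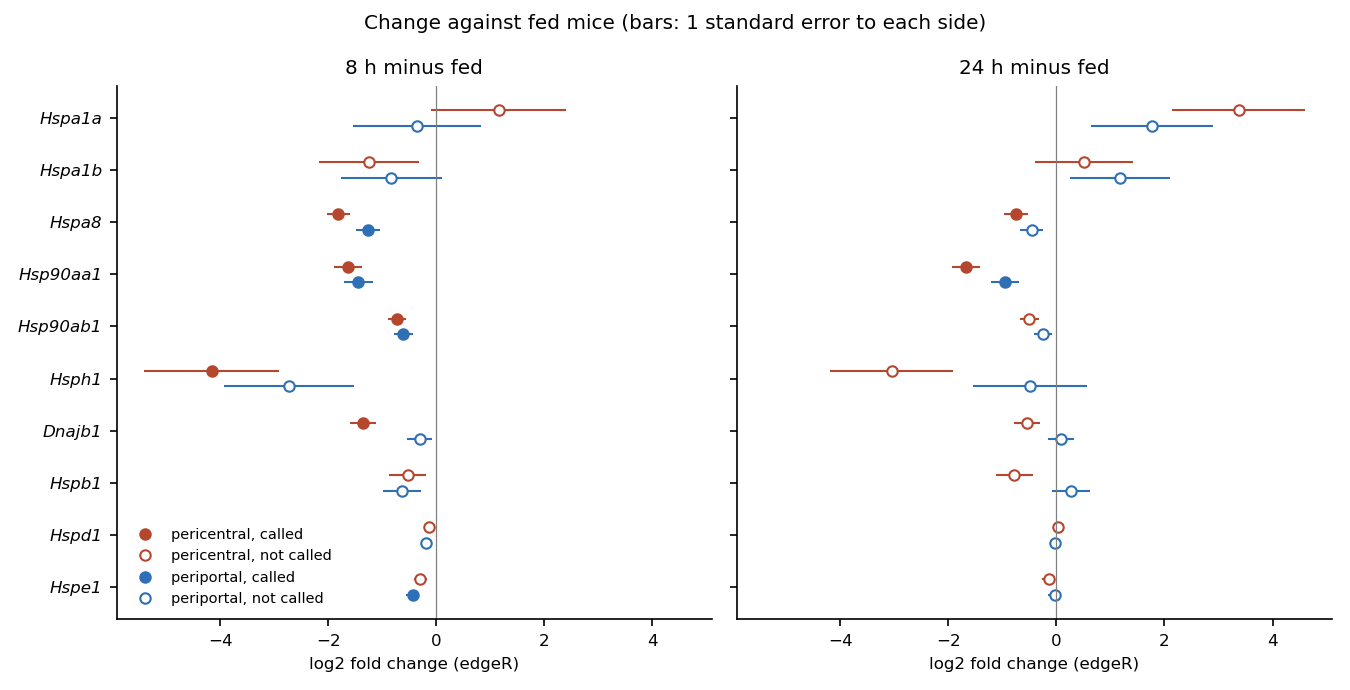
Log2 fold changes against fed mice of the same zone (edgeR) for each chaperone at 8 h (left) and 24 h (right); circles are filled where called, and bars are 1 standard error to each side. Hspa8, Hsp90aa1 and Hsp90ab1 are filled in both zones at 8 h, the bars of Hspa1a, Hspa1b and Hsph1 are the widest, and Hspd1 lies within 0.19 of 0.

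The inducible pair Hspa1a (ENSMUSG00000091971, chromosome 17, 34969190 to 34972156) and Hspa1b (ENSMUSG00000090877, chromosome 17, 34956436 to 34959238) were called by edgeR in 0 of the 13 comparisons; at an unadjusted p under 0.05 Hspa1a had 1 and Hspa1b 0. Hspa1b held 66.2, 54.6 and 60.5 CPM in fed, 29, 24.4 and 23 CPM in 8 h, and 158, 15.1 and 84.9 CPM in 24 h pericentral libraries. Periportal libraries held 44.8, 29.8 and 19.3 CPM, then 17.8, 29.4 and 5.5 CPM, then 23.8, 10.8 and 178 CPM. Within the 24 h groups, the highest library was 10.4 times the lowest in pericentral and 16.5 times in periportal hepatocytes, against 1.21 and 2.32 times in the fed groups. Hspa1b in 8 h pericentral libraries lay below all fed pericentral ones, with a log2 fold change of -1.25 (SE 0.93, edgeR q = 0.44). This was called only when the fit held those groups alone (q = 0.000692 to 0.625 over the alternatives). From 24 h pericentral (85.9 ± 71.3 CPM, SD, n = 3) down to 8 h periportal (17.6 ± 11.9 CPM), only fed pericentral and fed periportal were neighbours that did not overlap.

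Hspa1a libraries spread by 24.8 times from lowest to highest in the pericentral and 26.7 times in the periportal 24 h group. It held 0.726, 0.984 and 1.09 CPM in fed, 1.72, 1.81 and 2.71 CPM in 8 h, and 20.1, 0.809 and 8.06 CPM in 24 h pericentral libraries. Periportal values were 4.46, 2.36 and 0.588 CPM, then 1.05, 3.96 and 0.745 CPM, then 3.3, 0.79 and 21.1 CPM. The 3 libraries with the most Hspa1a, pericentral 24 h replicates 1 and 3 and periportal 24 h replicate 3, also had the most Hspa1b. All 8 h pericentral libraries lay above all fed pericentral ones, the other way from Hspa1b, with a log2 fold change of 1.16 (SE 1.25, edgeR q = 0.622). This too was called only in the fit of those groups alone (range 0.0435 to 0.757). Against fed, Hspa1a at 24 h in pericentral hepatocytes differed by 3.37 (SE 1.23, edgeR q = 0.0671, range 0.013 to 0.287). It was called by the Wald test of DESeq2, when pericentral 24 h replicate 2 was left out (3.92), and on omitting replicate 2 or 3 of the periportal 24 h group (3.37 each).

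Reads of this pair cannot be separated fully. Of the 31-base words of the annotated Hspa1a transcript 63.8% also occurred in Hspa1b, and the estimates gave Hspa1b 87.8% to 98.9% of the sum of both. Summed into 1 feature, the pair changed by -1.16 (SE 0.94, edgeR q = 0.488) and 0.64 (SE 0.92, q = 0.679) at 8 h and 24 h in pericentral hepatocytes. In periportal hepatocytes the sum changed by -0.79 (SE 0.95, q = 0.652) and 1.23 (SE 0.94, q = 0.406). Without periportal 24 h replicate 3 the periportal difference at 24 h from fed turned from 1.18 to -0.87 for Hspa1b and from 1.77 to -0.30 for Hspa1a. Other members also share words with other annotated genes (Hspa8 43.5%, Hsp90aa1 51.4%, Hspb1 52.3%, Hspd1 50.1%), yet the non-member partners in the count table that held at least 5% of a member's words had at most 26.8 estimated counts in any library. That value was of Hspa1l, while the lowest Hspa1a library held 16 counts and the lowest Hspa1b library 118. The gene sharing the most words with Hspa8 (Gm15459, 38.6%) and that with Hspe1 (AC117239.2, 23.1%) were not among the genes analysed here, so their levels are unknown.

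**Figure D3:**
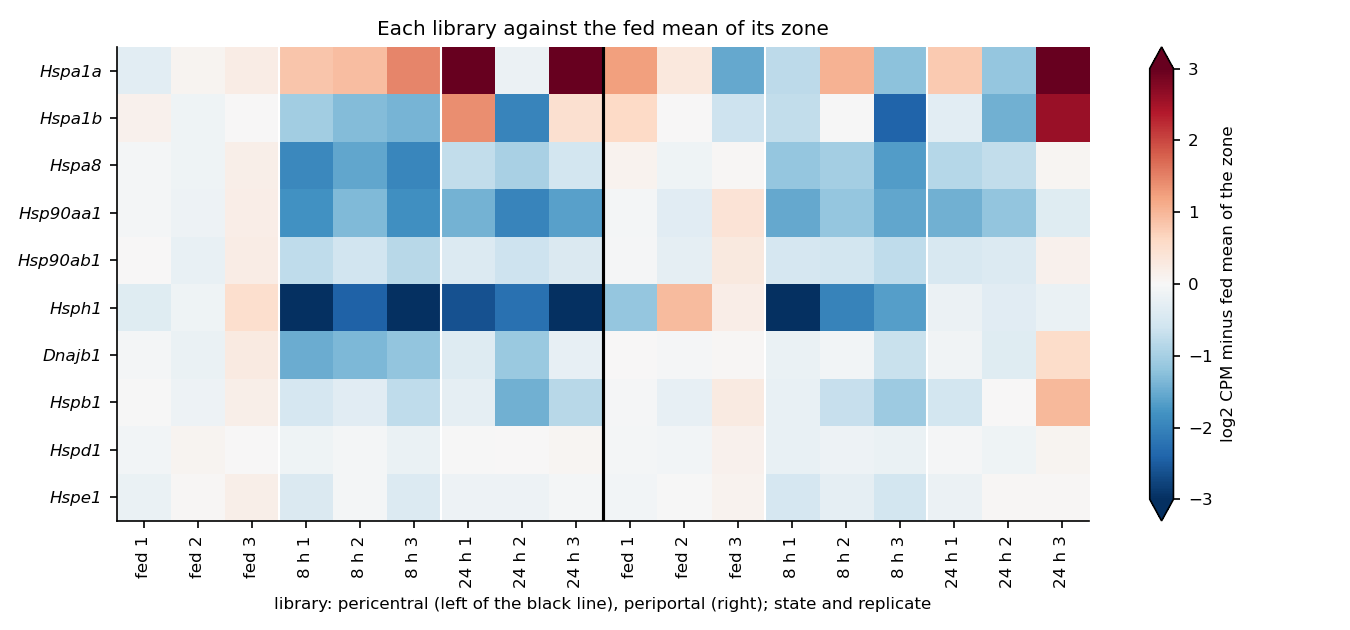
Log2 CPM of each chaperone (rows of tiles) in each of the 18 libraries (columns), minus the fed mean of the same zone; red is higher and blue lower, and colours stop at 3 and -3, so values beyond them are not told apart. Columns at 8 h are blue for Hspa8 and Hsp90aa1 in both zones, and periportal 24 h replicate 3 holds the highest value of its group for 9 of the 10 genes.

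Hspb1 (ENSMUSG00000004951, chromosome 5, 135887919 to 135889563, plus strand), the small heat shock protein HSP25 of the mouse, was lower on the periportal side in fed mice and at 8 h. Pericentral libraries held 40.6, 36.7 and 46.4 CPM in the fed state, 28.8, 32.6 and 24.2 CPM after 8 h and 33.8, 15.2 and 23 CPM at 24 h. Periportal libraries held 15, 13.1 and 18.6 CPM, then 13.2, 9.47 and 7.17 CPM, then 10.5, 15.4 and 30.4 CPM. Every pericentral library exceeded every periportal one in fed mice and at 8 h, and the zones overlapped at 24 h.

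Averaged over the 3 states, Hspb1 was 2.13-fold lower on the periportal side (log2 fold change -1.09, SE 0.20, edgeR q = 0.00126), and this held in every alternative (0.00416 at most). It was the 1 member called in that comparison, in which 9.96% of all genes tested were called lower. By state, the difference was -1.40 in fed mice (SE 0.35, edgeR q = 0.0211, range 0.000354 to 0.0819) and -1.51 at 8 h (SE 0.36, q = 0.0176, range 0.000144 to 0.0919). The fed call was lost without a filter and without pericentral fed replicates 1 (-1.42) or 3 (-1.31) or periportal fed replicates 1 (-1.38) or 2 (-1.30). The 8 h call was lost without pericentral replicate 2 (-1.42) or periportal replicates 2 (-1.47) or 3 (-1.32). At 24 h it was -0.35 (SE 0.34, edgeR q = 0.681). Periportal 24 h replicate 3 held 30.4 CPM, against 10.5 and 15.4 CPM in the rest of its group. Pericentral 24 h replicate 2 held 15.2 CPM, against 33.8 and 23 CPM. The 24 h zone difference without either library is not given here, so its size is uncertain. The test of the change in zone difference from 8 h to 24 h gave 1.16 (SE 0.49, edgeR q = 0.825). Markers of endothelial, Kupffer, stellate and cholangiocyte cells were higher in sum in every fed periportal than in every fed pericentral library. At 8 h this held for the cholangiocyte sum (27.8 to 37.6 CPM pericentral, 44.2 to 56.2 CPM periportal), while the endothelial sum (4.44 to 9.58 against 3.81 to 31.7 CPM), the stellate sum (0.921 to 1.83 against 1.24 to 16.7 CPM) and the Kupffer cell and leukocyte sum (0.325 to 1.89 against 0.686 to 5.96 CPM) overlapped between zones. Their part in the zone difference was not tested.

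With fasting, Hspb1 was not called by edgeR in either zone. The differences from fed were -0.53 (q = 0.351, range 0.0333 to 0.574) at 8 h and -0.78 (q = 0.12, range 0.0462 to 0.339) at 24 h in pericentral hepatocytes. The first was called when only these groups were fitted, the second by limma-voom and on omitting replicate 1 of the pericentral (-1.12) or replicate 3 of the periportal 24 h group (-0.78). On the periportal side they were -0.64 (q = 0.267) and 0.27 (q = 0.641), and without periportal 24 h replicate 3 the latter was -0.26. In order of their means from fed pericentral (41.2 ± 4.91 CPM, SD, n = 3) to 8 h periportal (9.96 ± 3.07 CPM), fed pericentral alone did not overlap its neighbour, 8 h pericentral.

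Across the list, zone differences were few. In fed mice 2 of 10 members (Hspb1 and Dnajb1) were called lower on the periportal side, against 4.13% of all genes tested, and the median was -0.41. At 8 h 1 member (Hspb1) was called lower, against 3.42%. At 24 h the count was 0 by edgeR, DESeq2 and limma-voom alike, and edgeR gave 0 members an unadjusted p under 0.05, while 4.17% of all genes tested were called in either direction. Tests of whether the change with fasting differed between zones called 0 members in each of the 3 forms by edgeR, DESeq2 and limma-voom, with 1 member each at an unadjusted p under 0.05 by edgeR. The background was 0.00%, 0.0160% and 0.00% of all genes tested from fed to 8 h, from fed to 24 h and from 8 h to 24 h.

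Of the mitochondrial chaperonin genes, Hspd1 was called in 0 and Hspe1 in 1 of the 13 comparisons. Hspd1 (ENSMUSG00000025980, chromosome 1, 55077835 to 55088243, minus strand), which encodes HSP60, held 434, 488 and 461 CPM in fed, 418, 442 and 400 CPM in 8 h, and 453, 468 and 485 CPM in 24 h pericentral libraries. Periportal values were 433, 423 and 491 CPM, then 381, 404 and 394 CPM, then 440, 407 and 475 CPM. Its log2 fold changes in the fasting comparisons lay between -0.19 and 0.17. DESeq2 and limma-voom also called 0, and 0 had an unadjusted p under 0.05 in edgeR. Neighbouring group means all overlapped.

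Hspe1 (ENSMUSG00000073676, chromosome 1, 55088132 to 55091307, plus strand), the HSP10 lid of the same chaperonin, held 117, 139 and 154 CPM, then 100, 131 and 101 CPM, then 122, 122 and 129 CPM in fed, 8 h and 24 h pericentral libraries. Periportal values were 116, 122 and 134 CPM, then 86.7, 103 and 84.7 CPM, then 110, 126 and 127 CPM. All 8 h periportal libraries lay below all fed and all 24 h periportal ones. Hspe1 fell there by 0.44 on the log2 scale (SE 0.12, edgeR q = 0.0222, range 0.0071 to 0.0896). The call was lost without periportal fed replicates 2 (-0.45) or 3 (-0.38) or 8 h replicates 1 (-0.40) or 3 (-0.39). In pericentral hepatocytes it differed by -0.30 (q = 0.112, range 0.0358 to 0.361), called only without 8 h replicate 2 (-0.43). From 8 h to 24 h the periportal difference of 0.41 lay at the threshold (q = 0.0524, range 0.0185 to 0.168) and was called in 5 settings and without pericentral fed replicates 1 or 3 or 8 h replicate 2 (0.40 each).

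At 24 h Hspa8 and Hsp90aa1 were the members called against fed. In pericentral hepatocytes 2 members were called, both lower, against 21.8% of all genes tested called in either direction, with a median of -0.53. An unadjusted edgeR p under 0.05, in either direction, was found for 7 members there, against 4259 of all 12477 genes tested. In periportal ones 1 member was called, lower (Hsp90aa1), against 19.6%, with a median of -0.03. Between 8 h and 24 h, 2 pericentral members (Hspa8 and Dnajb1) rose, against 5.20% called higher of all genes tested, with a median of 0.52. On the periportal side 1 member (Hspa8) rose, against 3.22%, the median was 0.64 and all 10 estimates were above 0. That count was 0 to 2 on leaving out single libraries. Periportal 8 h replicate 3 was the lowest of its group in 8 members and 24 h replicate 3 the highest in 9. Without the latter the call of Hspa8 was lost and Hspa1b was at -0.04. In the periportal comparison of 24 h with fed, Hspa1a, Hspa1b, Dnajb1 and Hspb1 turned below 0 without that library. These comparisons share libraries with each other. The pericentral count at 24 h against fed was 1 without pericentral fed replicate 3 and 5 without periportal 24 h replicate 3. It was 4 by DESeq2 and by limma-voom, and 3 under several other settings given below.

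The other genes of the chaperone network were taken from lists set by function, with results of these data already known. Most HSP90 co-chaperones fell. Of 10 genes, 7 were called lower at 8 h in each zone and 0 higher, with medians of -0.57 (pericentral) and -0.51 (periportal). At 24 h 7 and 5 were called lower, with medians of -0.55 and -0.39. Of all 12477 genes tested, 6.57% and 6.85% were called lower at 8 h, and 1382 and 1250 genes at 24 h. Stip1, which bridges HSP70 and HSP90, held 156, 135 and 176 CPM in fed, 46.6, 65.5 and 56.3 CPM in 8 h, and 69.4, 71.6 and 64.2 CPM in 24 h pericentral libraries, so that all fasted libraries lay below all fed ones. Its log2 fold changes in pericentral hepatocytes were -1.47 at 8 h (SE 0.16, edgeR q = 2.08e-05) and -1.19 at 24 h (SE 0.16, q = 8.91e-05), and in periportal ones -1.25 and -0.88. Chordc1, an HSP90-binding zinc protein, changed by -1.44 and -1.15 in pericentral and by -1.12 and -0.94 in periportal hepatocytes, and all of these calls of Stip1 and Chordc1 held in every alternative.

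Cytosolic partners of HSP70 that were called at 8 h were all lower. Of 15 tested genes of 17 listed (Hspa2 and Hspa14 were not tested), 6 were called lower at 8 h in pericentral and 5 in periportal hepatocytes and 0 higher, with medians of -0.41 and -0.42. Those called lower are 40% and 33.3% of the tested list, against 6.57% and 6.85% of all genes tested. The pericentral count was 3 without 8 h replicate 1 or 2. At 24 h against fed, 3 were higher and 4 lower in pericentral and 1 higher and 2 lower in periportal hepatocytes (3 in all, but 6 by DESeq2, 0 without periportal fed replicate 3 and 1 without periportal 24 h replicate 1). The periportal 3 of 15 are 20%, near the 19.6% of all genes tested called there, and the pericentral 7 are 46.7% against 21.8%. At 24 h against 8 h, 5 pericentral and 3 periportal genes rose and 0 fell (33.3% and 20%, against 5.20% and 3.22% of all genes tested called higher). The pericentral count there was 2 without 8 h replicates 1 or 2 or 24 h replicate 3, and 3 without 24 h replicate 1. Dnaja1, another HSP40 gene, held 657, 751 and 624 CPM in fed, 212, 242 and 292 CPM in 8 h, and 484, 329 and 459 CPM in 24 h pericentral libraries. These 3 ranges did not overlap. It fell at 8 h by 1.45 in pericentral (SE 0.18, edgeR q = 5.77e-05) and 1.36 in periportal hepatocytes (SE 0.18, q = 0.000106), in every alternative. Bag3, an HSP70 nucleotide exchange factor induced by HSF1, fell by 1.61 at 8 h in pericentral hepatocytes (SE 0.25, q = 0.000428).

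Chaperones of the endoplasmic reticulum were lower at 24 h than at 8 h by their medians. Of 13 genes, 8 pericentral and 6 periportal genes were called lower at 8 h (medians -0.69 and -0.52). At 24 h 13 and 11 were called lower (medians -1.30 and -1.18). Of all 12477 genes tested, 6.57% and 6.85% were called lower at 8 h, 1382 and 1250 genes at 24 h, and 563 and 529 genes from 8 h to 24 h. From 8 h to 24 h, 3 pericentral genes (Calr, Pdia6 and Sdf2l1) and 6 periportal ones (the same and Canx, Pdia3 and Pdia4) fell and 0 rose. Of these only Pdia3 and Pdia4 had been called lower in the same zone at 8 h. The count of 6 was 3 without periportal 8 h replicate 2, 2 without periportal 24 h replicate 2 and 10 by DESeq2, which called 5 in place of 3 on the pericentral side. Hspa5, the HSP70 of that compartment, held 1550, 1350 and 1780 CPM in fed, 550, 436 and 387 CPM in 8 h, and 427, 470 and 425 CPM in 24 h pericentral libraries. It fell by 1.77 and 1.82 there (SE 0.19 each, edgeR q = 1.44e-05 and 8.92e-06). Its 8 h and 24 h ranges overlapped (log2 difference -0.05, q = 0.899). Whether these genes and the heat shock members differ in their change after 8 h was not tested.

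**Figure D4:**
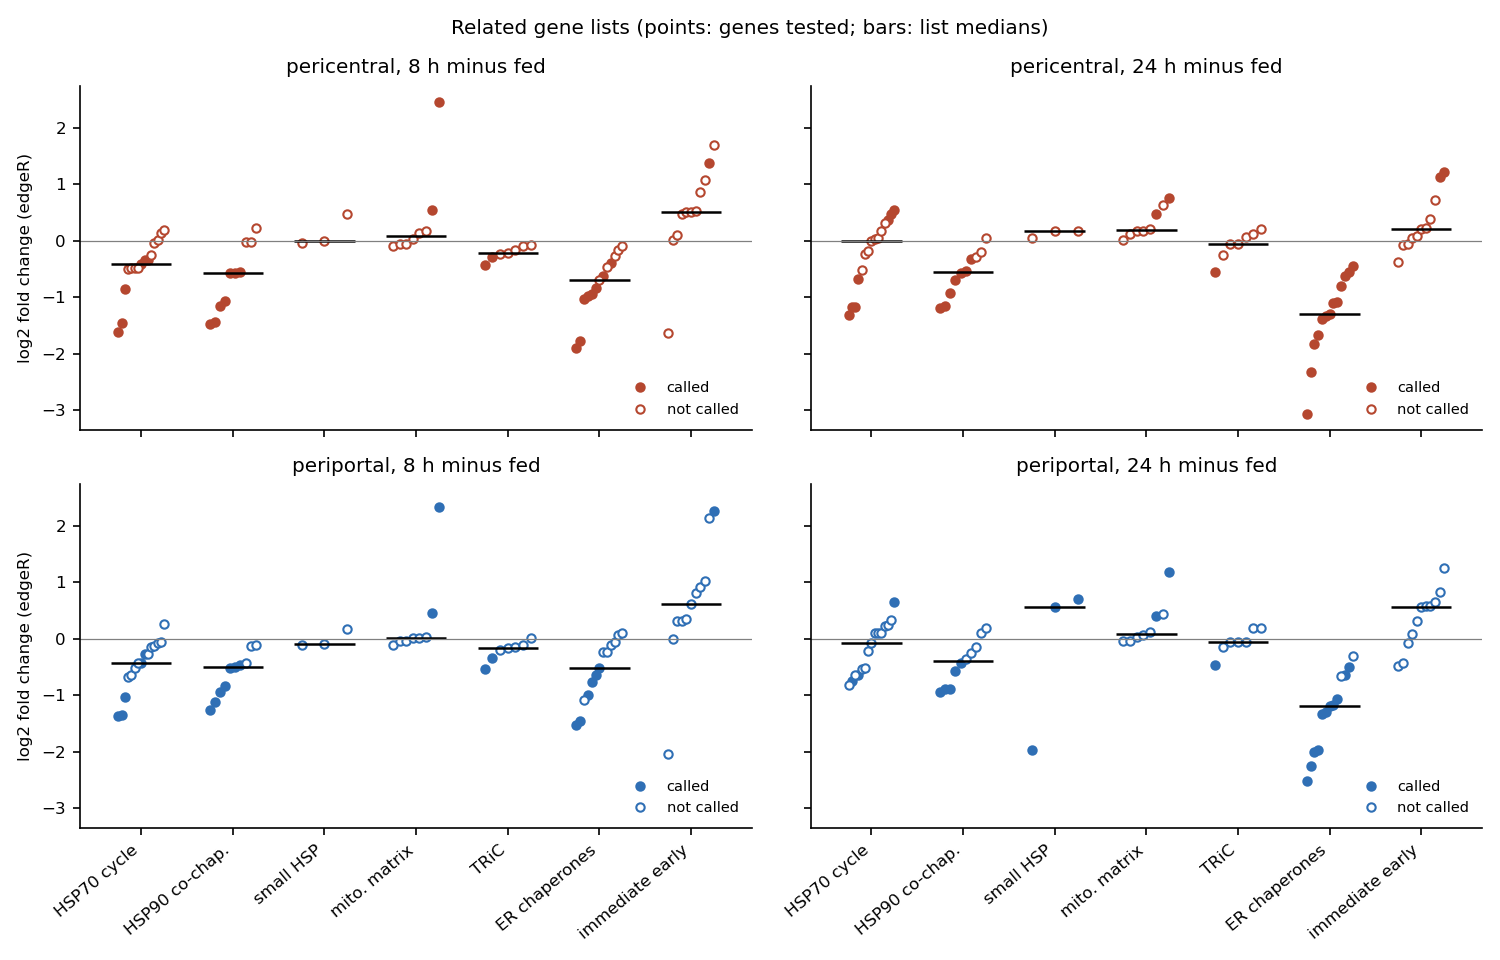
Log2 fold changes against fed mice (edgeR) of the tested genes of 7 related lists, in pericentral (top, red) and periportal hepatocytes (bottom, blue) at 8 h (left) and 24 h (right); filled points are called and black bars are list medians. The HSP90 co-chaperones lie mostly below 0 in every panel, with medians from -0.57 to -0.39, and the endoplasmic reticulum chaperones have the lowest medians of these lists at 24 h (-1.30 and -1.18).

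In the mitochondrial list of 8 matrix genes, Clpx and Dnaja3 rose and 0 genes fell in each of the 4 comparisons with fed. They are 25% of the list, against 7.27% and 7.56% of all genes tested called higher at 8 h. At 24 h that share is near the 21.8% and 19.6% of all genes tested called in either direction. Clpx, the unfoldase of a matrix protease, held 67.4, 88.8 and 83.8 CPM in fed and 429, 497 and 398 CPM in 8 h pericentral libraries, with no overlap. Its log2 fold changes at 8 h were 2.46 in pericentral (SE 0.19, edgeR q = 7.92e-07) and 2.33 in periportal hepatocytes (SE 0.19, q = 1.12e-06). In the cytosolic TRiC chaperonin, 7 of 8 genes were tested (not Cct6a), 2 were lower at 8 h in each zone (28.6%, against 6.57% and 6.85% of all genes tested) and 1 at 24 h. That 1 is 14.3% of the list, below the 21.8% and 19.6% of all genes tested called in either direction. Cct3 was called lower in all 4 comparisons with fed, by 0.43 to 0.55. Of 3 other small heat shock proteins, Hspb6 was lower on the periportal side in fed mice (log2 fold change -1.12, edgeR q = 0.00117) and at 8 h (-1.21, q = 0.000823), like Hspb1, in every alternative. Hspb8 was also lower there in fed mice (-0.61, q = 0.0251, range 0.00596 to 0.128). That call was lost without pericentral fed replicates 2 (-0.64) or 3 (-0.46) or any of the periportal fed replicates (-0.54, -0.64 and -0.66). At 8 h Hspb8 differed by -0.40 (q = 0.159). Between zones at 24 h, Hspb6 differed by -0.60 (edgeR q = 0.0851), not called, though the libraries did not overlap. At 24 h against fed in periportal hepatocytes, Hspb6 (0.70, edgeR q = 0.0167) and Hspb8 (0.57, q = 0.0186) were higher and Cryab lower (-1.97, q = 0.0181). Of all genes tested, 19.6% were called there in either direction. The Cryab change rests on low means, 0.32 CPM at 24 h and 1.32 CPM in the fed state.

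Hsf1, the regulator itself, was between 0 and 2.74 CPM and was listed at 0 in 6 libraries, and no fold change is given because a listed 0 may be a failed estimate. Of the 3 HSF1 regulators, Hsbp1, which encodes an HSF1-binding protein, was the 1 called in a fasting comparison, higher at 24 h than fed in periportal hepatocytes (0.28, SE 0.10, q = 0.0478, range 0.0264 to 0.174). It was lost in 2 settings and for 15 of the 18 libraries left out singly (0.23 to 0.31), all but periportal fed replicate 3, pericentral 8 h replicate 1 and periportal 8 h replicate 3. The cold-induced Rbm3 mRNA had 52.6, 62.1 and 67 CPM in fed, 37.5, 34 and 31.6 CPM in 8 h, and 63.4, 72.1 and 88.4 CPM in 24 h pericentral libraries. It fell at 8 h by 0.82 in pericentral (SE 0.13, edgeR q = 0.000498) and by 0.53 in periportal hepatocytes (q = 0.0118; lost without fed replicate 2, -0.47, or 8 h replicate 2, -0.45), and then rose by 1.12 and 0.99. Cirbp, the other cold-induced gene, differed from fed at 8 h by 0.88 in pericentral (SE 0.30, edgeR q = 0.0614) and 0.37 in periportal hepatocytes (q = 0.468), neither called by edgeR. At 24 h it was higher than in fed pericentral hepatocytes by 1.18 (SE 0.29, edgeR q = 0.0098), which was 0.85 and lost without 24 h replicate 2. In periportal ones it was higher by 1.07 (SE 0.29, q = 0.018), lost without fed replicates 1 and 3 or 24 h replicates 1 and 2 (0.87 to 1.05).

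Of 7 clock genes, 5 (71.4%) were called at 8 h against fed in each zone, where 1727 and 1798 of all 12477 genes tested were called. Npas2 was higher by 5.09 and 6.83 and Dbp differed by -4.96 and -4.08 on the log2 scale. These sizes rest on low means in pericentral and periportal libraries: 0.173 and 0.0526 CPM for fed Npas2, and 0.621 and 1.18 CPM for Dbp at 8 h. At 24 h against fed, with the same clock hour, 2 and 3 were called (28.6% and 42.9%, against 21.8% and 19.6% of all genes tested). Per2 differed by -1.60 and -1.22. Summed immediate early genes, which rise with handling and cell isolation, were 151 to 204 CPM in fed, 186 to 329 CPM in 8 h and 101 to 288 CPM in 24 h pericentral libraries. In periportal libraries they were 235 to 469, 307 to 786 and 288 to 430 CPM. Of 11 tested, 1 in each zone was called higher at 8 h, a count that was 0 to 2 on leaving out single libraries. That is 9.09% of the list, near the 7.27% and 7.56% of all genes tested called higher. Their part in the chaperone results was not tested.

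**Figure D5:**
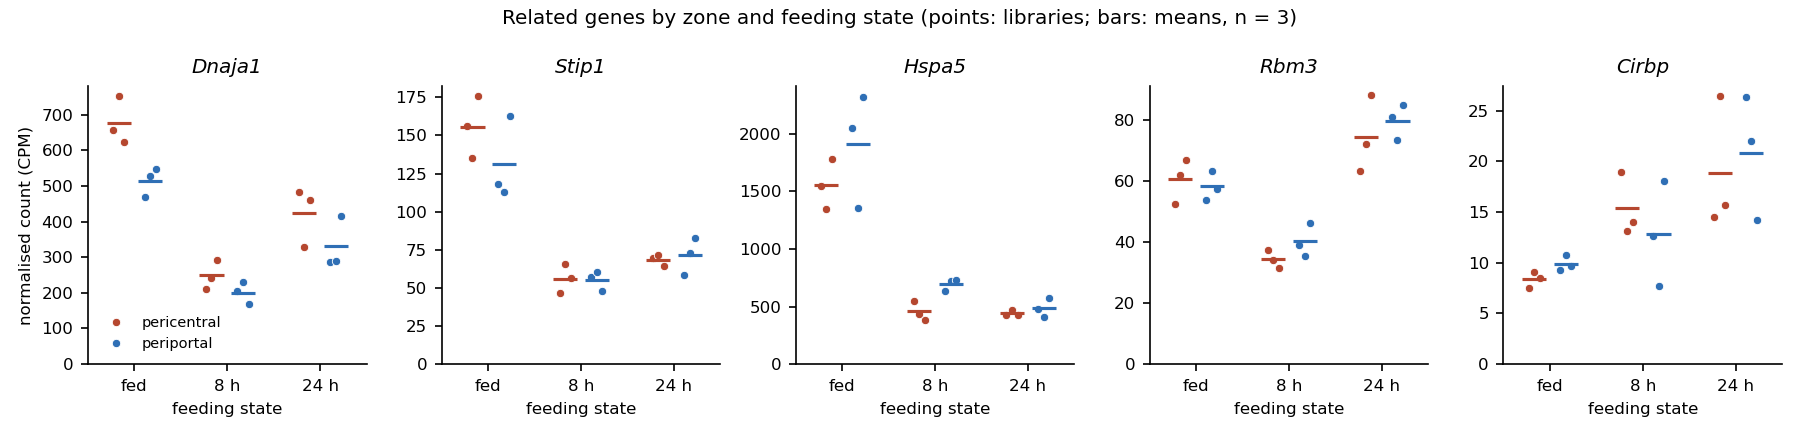
Normalised counts (CPM, linear axes from 0) of Dnaja1, Stip1, Hspa5, Rbm3 and Cirbp; points are libraries, bars are means of 3, red is pericentral and blue is periportal. Dnaja1 and Rbm3 dip at 8 h and are higher at 24 h, while Stip1 and Hspa5 stay low at 24 h.

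Likeness across the 18 libraries, which share zones, states and scaling, is given as a description. Only 9 pairs of members were taken, none with Hsph1 or Hspb1 and none joining a mitochondrial with a cytosolic member. Over these, Pearson r of log2 CPM ran from 0.55 (Hspa1b and Hspa8) to 0.92. It was 0.92 between Hsp90aa1 and Hsp90ab1, 0.87 between Hspa8 and Hsp90ab1, 0.81 between Hspd1 and Hspe1 and 0.72 between Hspa1a and Hspa1b. Among 8010 genes, those most like the mean of Hspa1a, Hspa1b, Hspa8, Hsp90aa1, Hsph1 and Dnajb1 were Dnaja1 (r = 0.87), Ahsa2 (0.86), P4ha1 (0.85), Maco1 (0.82) and Mettl7b (0.81). Without periportal 24 h replicate 3 these values were 0.91, 0.86, 0.83, 0.87 and 0.86 over 17 libraries. Those most like the mean of Hspd1 and Hspe1 were Psmd12 (0.86), Nadk (0.85), Psmc5 (0.84), Cct8 (0.83) and Rnf187 (0.83).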

How the data were processed

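Gene-level estimated counts of 18 mouse hepatocyte RNA libraries were used as the authors deposited them. Kallisto 0.46.0 and the build mm10 (GRCm38) are named in the submitters' processing notes; the annotation and the use of strand are not given in the sources used here. Values were treated as unnormalised and were rounded to whole counts. Per library, 67.5% to 70.5% of values were whole within 1e-09. That share includes zeros, which are whole under any scaling, so it is limited support for unnormalised values. Of the 28030 genes, 15145 to 15840 per library had a rounded count of at least 1. Overlapping genes such as Hspd1 and Hspe1 were not separated by strand here.

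Genes were kept by filterByExpr and tested with the robust quasi-likelihood fit of edgeR 4.0.16 (TMM, R 4.3.3), with all 18 libraries, 1 coefficient per group and 13 contrasts. P-values were Benjamini-Hochberg adjusted over 12477 genes at a threshold of 0.05. The SE is the log2 fold change divided by the square root of F. The fit was tested on simulated data. Replicates were checked for libraries deposited more than once; the chi-square per gene was at least 35 between replicates, so none were merged.

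The 10 members were always named, as were up to 3 called genes with the largest change of each related list, Hsf1, Rbm3, Cirbp and the 5 genes most like the members (mean of at least 5 CPM). Per-library values of a few of these are printed. The members and lists were chosen with earlier results of these data known. Alternatives were DESeq2 size factors, scaling without the 20 most abundant genes, no filter beyond 1 count, a mean of at least 1 CPM, only the groups compared, a replicate block, DESeq2 1.42.0, limma-voom 3.58.1, Hspa1a and Hspa1b summed, and leaving out each library. Adjusted p that DESeq2 gave as NA stayed NA. Words of 31 bases were compared among GENCODE M21 transcripts; the authors' own transcripts may differ.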

Additional observations from a re-analysis of the deposited data

How the results depend on the processing

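Of the members' 3484 log2 fold changes under an alternative, 14 changed sign by more than 1 SE or with a call, all 14 on leaving out 1 library. Of the rest, 76 lost a call, 36 gained one and 3358 kept their side of the threshold. Smaller changes of sign without a call were not counted apart from the 3358. The number of members called in fed mice between zones went from 2 to 0 without a filter. In pericentral hepatocytes at 24 h against fed it was 4 by DESeq2 and 4 by limma-voom in place of 2. It was 3 in the scaling without the 20 most abundant genes, without a filter and at a mean of at least 1 CPM. With only the groups compared and with the replicate block it was also 3. At 8 h against fed it was 7 there with only the groups compared in place of 5, and 4 without a filter, by DESeq2 and by limma-voom. At 24 h against 8 h it was 1 in place of 2 without a filter, with only the groups compared and by limma-voom. In periportal hepatocytes with only the groups compared it was 3 in place of 4 at 8 h against fed and 0 in place of 1 at 24 h against fed. At 24 h against 8 h it was 0 in that fit in place of 1, 2 with DESeq2 size factors, 2 in the scaling without the 20 most abundant genes, 2 at a mean of at least 1 CPM, and 3 by DESeq2. Leaving out 1 library gave 0 to 2 members between zones in fed mice, 0 to 1 at 8 h and 1 to 2 averaged over the states. For 8 h, 24 h and 24 h against 8 h it gave 4 to 6, 1 to 5 and 1 to 2 in pericentral and 2 to 4, 0 to 2 and 0 to 2 in periportal hepatocytes. The causes were not tested.

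Fold changes that changed sign by more than 1 SE or with a call on leaving out 1 library ranged as follows. The zone difference at 24 h was -2.27 to 0.94 for Hspa1a, -0.14 to 0.37 for Hspa8, -0.25 to 0.34 for Hsp90aa1 and -0.22 to 0.11 for Hsp90ab1, and averaged over the states -0.33 to 0.73 for Hspa1a. The periportal change at 24 h from fed was -0.30 to 2.52 for Hspa1a, -0.87 to 1.69 for Hspa1b, -0.23 to 0.26 for Dnajb1 and -0.26 to 0.56 for Hspb1, and from 8 h -0.04 to 2.60 for Hspa1b. The difference between zones in the change was -1.37 to 1.47 (fed to 24 h) and -1.79 to 1.06 (8 h to 24 h) for Hspa1b, -0.05 to 0.46 (fed to 24 h) for Hspa8 and -6.31 to 1.74 (8 h to 24 h) for Hsph1. Cirbp in pericentral hepatocytes at 24 h against 8 h ranged from -0.03 to 0.47. Except for Hspa1a at 24 h between zones (pericentral 24 h replicate 1), Hsph1 (pericentral 8 h replicate 2) and Cirbp (pericentral 24 h replicate 2), the sign changed without periportal 24 h replicate 3.

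Replicate numbers were not taken to pair the samples: deviations of same-numbered libraries correlated with r of -0.01 to 0.17, over 0.1 in 3 of 9 pairs of zones, and in 5 of the 9 the pericentral library matched its own number best. The 3 are the 24 h pairs (0.12, 0.17 and 0.15), each with its own number as best match, at most a weak hint of pairing at 24 h. Deviations were taken from means of 3 libraries, so these matches depend on each other and cannot decide whether the samples are paired. With the replicate block 0 members were called between zones at 24 h, as without it. That block gave libraries of the same number a shared effect across all feeding states, not a separate effect within 24 h. It therefore cannot decide whether pairing at 24 h affects the zone result, which was not tested. With the replicate block 5 and 4 members were called at 8 h in pericentral and periportal hepatocytes. With 3 libraries a group and 18359911 counts at least, low members such as Hspa1a and Hsph1 are the least precise.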
